A study of Homo sapiens with 6 samples.

Results

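The DHRS genes carry the family name dehydrogenase/reductase, and 10 of them were taken here by symbol: DHRS1, DHRS2, DHRS3, DHRS4, DHRS7, DHRS7B, DHRS9, DHRS11, DHRS12 and DHRS13. A row of the count table, which holds 57820 gene rows, was matched by Ensembl identifier for 9 of the 10. DHRS11 had no matched row and was not analysed here. Of the 9, 8 passed the filter on low counts, and DHRS9 did not. The family was selected on values from these same libraries, the difference between the groups and the level in each library, so the members' differences are given as a description. Where a fit across all genes called members, the count stands beside the share of all genes called, and nothing is read from it.

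The data come from poly(A)-enriched RNA of HEK293T, an established line of human embryonic kidney origin with the SV40 large T antigen. All cells received RfxCas13d, a CRISPR nuclease that cuts RNA. In the control group (NT) it was paired with a crRNA that is non-targeting, and in the other group (TAR) with a crRNA that targets mCherry, the mRNA of a fluorescent protein with no counterpart in the human genome. Each group had 3 biological replicates of this 1 line, whose total counts lay between 21321850 and 25906275. Whether the cells contained mCherry mRNA, and how RfxCas13d was delivered, the sources used here do not say.

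Short-chain dehydrogenases/reductases (SDRs) are enzymes that move hydride between NAD(H) or NADP(H) and the hydroxyl or carbonyl group of a small substrate. Their substrates include retinoids, steroids, prostaglandins, lipid intermediates and xenobiotic carbonyls. DHRS3 reduces all-trans-retinal to retinol in the endoplasmic reticulum and so limits retinoic acid synthesis. DHRS4 is a peroxisomal NADPH-dependent carbonyl and retinal reductase, and DHRS7B is a peroxisomal reductase of ether lipid synthesis. DHRS2, also called HEP27, is a carbonyl reductase that was described to bind MDM2 and stabilise p53.

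The start-site sequence is shown for the member that stood apart between the groups, DHRS2, and for DHRS4, its relative on the same chromosome. Both run from 250 bases before to 50 bases after the RefSeq transcript start on GRCh38.p14 and lie on the plus strand, DHRS2 at chr14:23629865-23630164 and DHRS4 at chr14:23953520-23953819. Capitals mark matches to TATAAA in DHRS2 and to GGGCGG or its reverse complement, the GC box, in DHRS4.
DHRS2: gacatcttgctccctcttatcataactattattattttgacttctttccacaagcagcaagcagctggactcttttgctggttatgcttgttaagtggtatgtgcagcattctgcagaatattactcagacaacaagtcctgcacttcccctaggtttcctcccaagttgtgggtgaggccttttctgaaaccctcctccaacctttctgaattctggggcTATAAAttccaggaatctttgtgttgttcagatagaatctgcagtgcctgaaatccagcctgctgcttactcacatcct
DHRS4: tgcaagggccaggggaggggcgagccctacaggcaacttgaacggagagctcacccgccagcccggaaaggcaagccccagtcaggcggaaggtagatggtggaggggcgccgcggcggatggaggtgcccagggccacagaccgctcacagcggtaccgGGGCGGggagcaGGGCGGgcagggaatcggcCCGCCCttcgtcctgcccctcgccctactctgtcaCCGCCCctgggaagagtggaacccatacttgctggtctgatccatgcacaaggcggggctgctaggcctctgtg
The DHRS2 window held 0 CpG dinucleotides, as did 3.94% of 34961 RefSeq windows of the same length, and 44.0% of its bases were G or C. Its TATAAA began 29 bases before the annotated start. TATAAA on either strand was found in 11.5% of all windows, and on the forward strand between 36 and 21 bases before the start in 2.23%, a range chosen after the DHRS2 match was seen. One DHRS9 window also has a forward TATAAA in that range. The 2 features together were found in 0.157% of windows. The DHRS4 window held 20 CpG dinucleotides and 68.7% G or C, against medians of 14.0 and 58.7% over all windows.

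Of the 10 members 9 had at least 1 start-site window in the RefSeq table, 18 windows in all, some of which overlap. CpG counts were 27 and 31 in the windows of DHRS1, 5 to 31 in those of DHRS3, 6 and 22 in those of DHRS7B, 33 to 40 in those of DHRS12, and 27 and 36 in the single windows of DHRS13 and DHRS11. The windows of DHRS9 held 0 to 4. Each window with fewer than 5 CpG was thus one of DHRS2 or DHRS9, the members with the lowest RNA levels per length in these cells. A window of DHRS3, a member at 8.03 CPM per kb, held 5, only just outside that limit. DHRS7, the member with the highest level, had no window. A relation between CpG count and RNA level was not tested. On either strand GGGCGG was found in 8 of the 18 windows (45.0% of all windows) and CCAAT in 2 (34.6%). TATAAA was found in 4 (11.5%), that of DHRS2 and 3 of DHRS9. The antioxidant response sequence of NRF2 and BACH1, TGACNNNGC, was found in 2 (13.4%), 1 of DHRS1 and 1 of DHRS9. The retinoid receptor core sequence AGGTCA was found in 1 (13.8%), a DHRS3 window, and the E-box CACGTG in 0 (7.27%). A match is a description of letters in the window, and overlaps between motifs were not removed.

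DHRS2 lay lower in every TAR library than in every NT library. Its level was 4.4, 4.97 and 4.94 CPM (counts per 1000000 after TMM scaling of the library sizes) in NT replicates 1 to 3, from 97, 126 and 117 counts. In TAR replicates 1 to 3 it was 2.41, 1.94 and 1.74 CPM, from 58, 49 and 41 counts. The groups did not overlap, as in 9.37% of all genes tested with TAR below NT. The lowest NT value was 1.82 times the highest TAR value. The means were 4.77 ± 0.318 CPM (SD, n = 3) and 2.03 ± 0.345 CPM (SD, n = 3), a log2 fold change of TAR over NT of -1.23 ± 0.19 (SE derived from the edgeR F statistic), or 2.34-fold lower. In bulk RNA, fewer cells with DHRS2 RNA and less of it per cell cannot be told apart.

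A log2 fold change of -1 or below was fitted for 41 of the 19676 genes tested (0.208%), and 10 genes, DHRS2 included, were at or below the value of DHRS2. Among the 16460 genes with a mean of at least 1 CPM, 3 were. DHRS2 rests on 340 counts in NT and 148 in TAR, the fewest of the tested members. Its log2 fold change lay between -1.37 and -1.13 over 15 alternative fits.

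**Figure D1:**
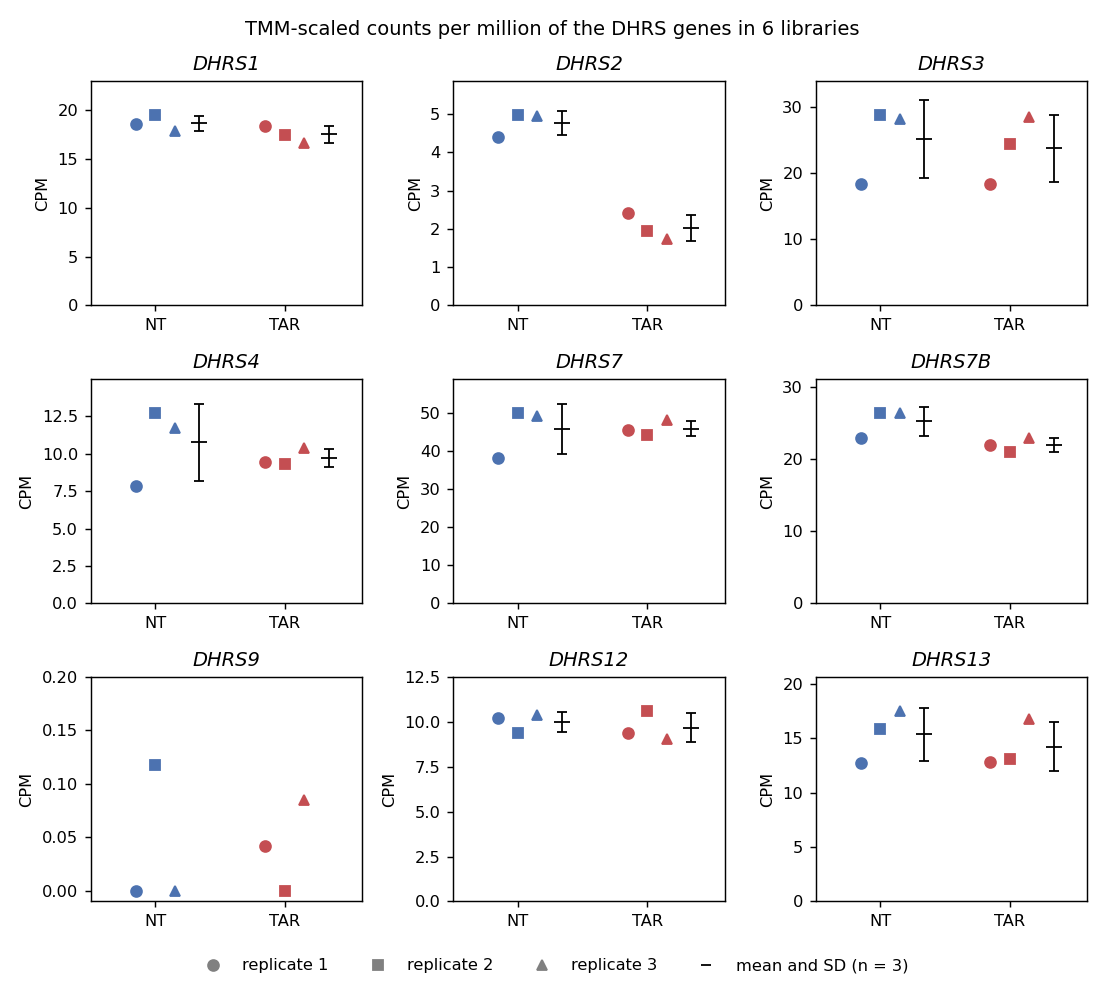
CPM (vertical axis, from 0) of the 9 DHRS genes with a row in the table, in NT (blue) and TAR (red) libraries, with symbols for replicates 1 to 3. Black bars are the mean ± SD over 3 libraries, left out for DHRS9, which had at most 3 counts a library. The groups do not overlap for DHRS2, at 4.4 to 4.97 CPM against 1.74 to 2.41 CPM, nor, by a far smaller gap, for DHRS7B. Of all genes tested, 9.37% had TAR below NT without overlap.

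edgeR called 0 of the 8 tested members at an adjusted p under 0.05, against 2 of all 19676 genes (0.0102%). At an unadjusted p under 0.05 edgeR gave 1 member, DHRS2, against 16.1% of all genes. DESeq2 called 0 members, against 173 of the 10902 genes to which it gave an adjusted p (1.59%). It gave DHRS2 an adjusted p of NA, so its count of members does not cover DHRS2. The limma-voom fit called 0 members (1 gene, 0.00508%). DHRS2 was called in 4 other edgeR fits, which also called more of all genes: with no filter (1.68%), with a term for the 7SK share described next (3.62%), with the replicate number as a block (6.14%) and without NT replicate 1 (8.98%). The family was selected on this contrast, so none of these counts is a test of DHRS2 or of the family. The groups did not overlap, with TAR below NT, in 2 members, DHRS2 and DHRS7B, and in 9.37% of all genes tested. TAR lay above NT without overlap in 0 members and in 12.6% of all genes. Of the 8 members 7 had a log2 fold change below 0, with a median of -0.10, against 50.6% of all genes and a median of -0.0037. The 7 members other than DHRS2 lay between -0.20 and 0.0030.

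**Figure D2:**
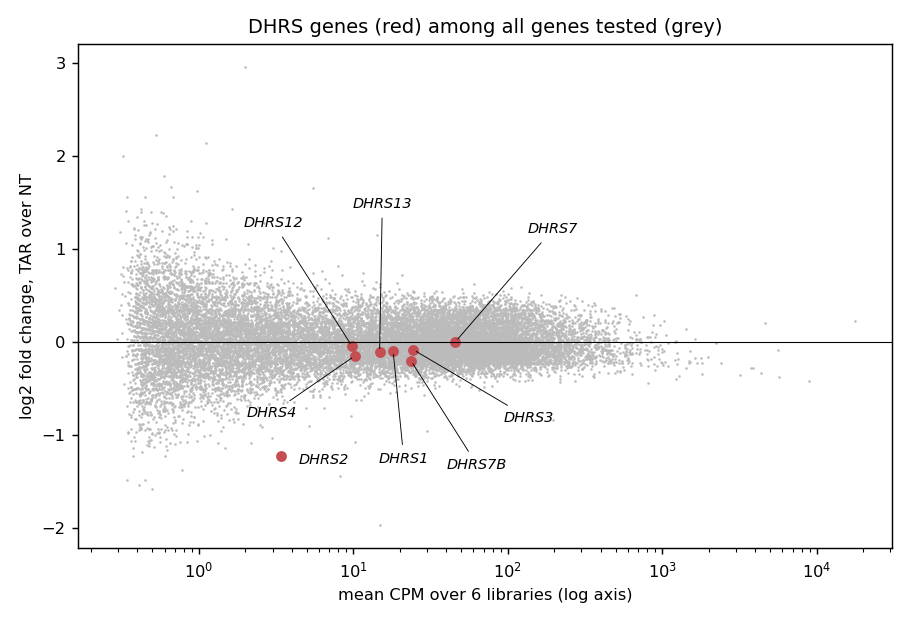
Mean CPM over 6 libraries (horizontal, log axis) against the log2 fold change of TAR over NT (vertical) for the 19676 genes tested, in grey, with the 8 tested DHRS genes in red. DHRS2 sits at -1.23 below the grey cloud at its level, and the other 7 lie inside it, between -0.20 and 0.0030.

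The libraries differ in how level depends on transcript GC content and in the share of counts from 7SK, an RNA without a poly(A) tail. For each 10 points of GC content, log2 CPM deviated from the mean over libraries by -0.0041, 0.064 and 0.17 in NT replicates 1 to 3 and by -0.10, -0.091 and -0.039 in TAR replicates 1 to 3. Every NT value lies above every TAR value, so the GC trend and the group cannot be told apart. A GC-corrected value may thus lack part of a group difference. The 7SK share was 0.516% in NT replicate 1, 0.716% and 0.439% in TAR replicates 1 and 2, and 1.15% to 1.37% in the other 3 libraries. The part of these measures in the differences of the members was not tested, and the values with each taken into account are given here. The transcript GC content of DHRS2 is 50.3%, near the median of 48.1% over all genes tested. Its log2 fold change was -1.20 ± 0.18 after a correction for GC content and -1.24 ± 0.21 when libraries with 7SK shares under and over 1% were given separate intercepts. Of the 8 members, 5 were below 0 after GC correction, with a median of -0.030 (-0.014 over all genes), and 5 with the library set term.

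**Figure D3:**
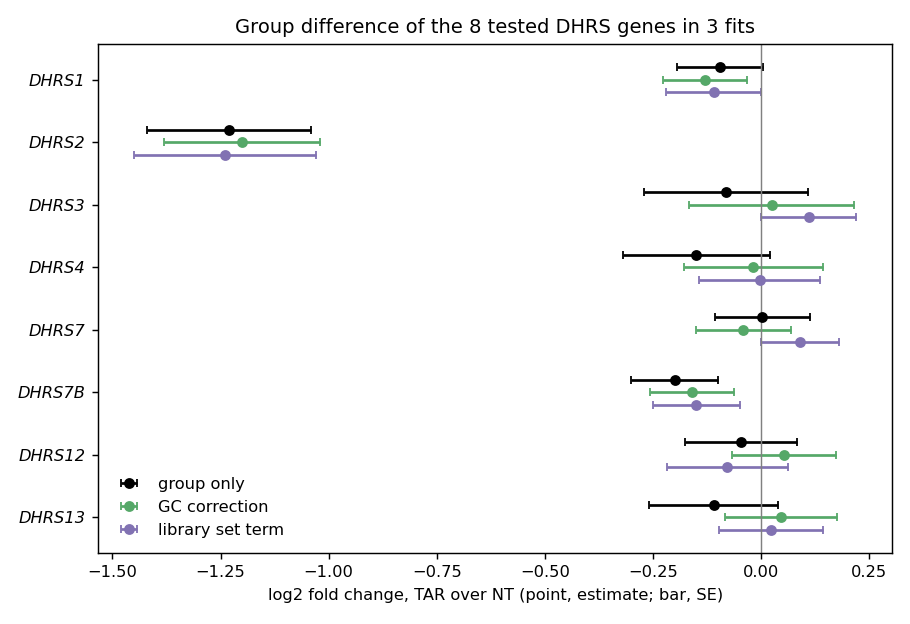
Log2 fold change of TAR over NT (horizontal) of the 8 tested DHRS genes with group as the only term (black), after GC correction (green) and with the library set term (purple). Points are estimates and bars the SE derived from the F statistic of the fit. DHRS2 is lowest in all 3 fits, from -1.24 to -1.20, while DHRS3 and DHRS13 are below 0 in the first and above 0 in the other 2 fits.

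On the plus strand of GRCh38 chromosome 14, DHRS2 spans 23630115 to 23645639. Other genes were located for the 52338 of 57820 rows matched to GENCODE v29, and no exon of these overlaps its exons. The nearest tested genes with such a location on either side were at nearly equal levels in the groups. AP1G2-AS1, 62.0 kb away, was at 13.8 ± 1.5 CPM in NT and 13.6 ± 0.486 CPM in TAR (SD, n = 3 each), and DHRS4-AS1, 293 kb away, had a log2 fold change of -0.049 ± 0.094. The 3 genes whose profile over the 6 libraries was closest to that of DHRS2, by Euclidean distance of centred log2 CPM among 16459 other genes, were TEX19 (distance 0.327), RELB (0.407) and ENSG00000263214.1 (0.465). Their log2 fold changes were -1.09 ± 0.22, -0.90 ± 0.20 and -1.14 ± 0.27. Closeness here is set mostly by the difference between the groups, and it was not tested.

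DHRS3, the retinal reductase, was spread widely within both groups. It was at 18.3, 28.7 and 28.2 CPM in NT replicates 1 to 3 and at 18.3, 24.4 and 28.4 CPM in TAR replicates 1 to 3. The replicates numbered 1 were the low ones in both groups, and the groups overlapped over nearly their whole range. NT replicate 1 and TAR replicates 1 and 2 are also the libraries with a 7SK share under 1%. The part of that share in the spread was not tested. The means were 25.1 ± 5.87 and 23.7 ± 5.08 CPM (SD, n = 3 each), a log2 fold change of -0.081 ± 0.19. It was 0.024 ± 0.19 after GC correction and 0.11 ± 0.11 with the library set term. RDH10, the retinol dehydrogenase that forms a complex with DHRS3 and works in the opposite direction, was at 52.9 ± 1.30 and 54.7 ± 4.29 CPM (SD, n = 3 each). Its spread in NT was narrow where that of DHRS3 was wide. DHRS3 lies on chromosome 1, from 12567910 to 12617731 on the minus strand.

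DHRS4, the peroxisomal carbonyl reductase, has near-identical copies beside it, so part of its counts cannot be assigned with certainty. The first 120 coding bases of DHRS4 and of the best matching DHRS4L2 transcript (GENCODE v29) are shown, with the 10 bases that differ in capitals. No other ungapped stretch of 120 bases in the aligned coding sequences has more differences.
DHRS4 coding: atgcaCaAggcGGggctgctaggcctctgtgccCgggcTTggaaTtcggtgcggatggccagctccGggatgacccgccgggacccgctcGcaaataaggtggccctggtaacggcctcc
DHRS4L2 coding: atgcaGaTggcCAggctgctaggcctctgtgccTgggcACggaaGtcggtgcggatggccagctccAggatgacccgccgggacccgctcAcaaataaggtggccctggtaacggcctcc
Over the ungapped aligned coding bases 97.4% were identical, and the longest identical run was 185 bases. A further 106 bases lay in gaps, with coding sequences of 834 bases in DHRS4 and 728 in this DHRS4L2 transcript. Of all words of 50 bases in DHRS4 transcripts, 37.1% also occur in a transcript of another gene, mostly DHRS4L2 (35.4%), and of words of 100 bases 18.8% do. The same shares of DHRS4L2 were 50.3% and 27.9%. Of the other 8 members with a row in the table, DHRS12 shared 16.3% of its words of 50 bases, all with AL162377.3, a protein-coding gene model that spans DHRS12 on the same strand, and the remaining 7 shared 1.1% or less. AL162377.3 is not among the matched genes of the table whose exons overlap those of DHRS12. The only such gene is ENSG00000231856, on the opposite strand.

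DHRS4 was at 7.85, 12.7 and 11.7 CPM in NT replicates 1 to 3 and at 9.45, 9.29 and 10.4 CPM in TAR replicates 1 to 3. The TAR values lay inside the NT range, whose lowest value was NT replicate 1. The log2 fold change was -0.15 ± 0.17, and -0.018 ± 0.16 after GC correction. DHRS4L2 was at 13.9 ± 1.80 and 12.4 ± 0.722 CPM and the pseudogene DHRS4L1 at 1.05 ± 0.0505 and 1.02 ± 0.146 CPM (SD, n = 3 each). Summed over the 3 loci, the level was 25.7 ± 4.29 CPM in NT and 23.1 ± 1.25 CPM in TAR (SD, n = 3 each). The sum does not depend on how counted reads were split among the 3 loci. It would miss reads left uncounted because they match several loci, or counted for other genes. Of the words of 50 bases in DHRS4L1 transcripts, 40.7% also occur in AL136419.1. The DHRS4 share of the sum was 37.2%, 42.8% and 44.2% in NT replicates 1 to 3 and 42.2%, 41.4% and 42.1% in TAR replicates 1 to 3, so it too was lowest in NT replicate 1.

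DHRS4-AS1, an antisense RNA gene, had more counts than DHRS4 in every library, at 2.94 to 4.17 times its CPM. It overlaps 14.4% of the exon bases of DHRS4, and whether counting used strand is not stated, although the libraries mark it. Its level was 35.1 ± 2.23 and 33.9 ± 1.81 CPM (SD, n = 3 each). DHRS4 spans chromosome 14 from 23953586 to 23969279, DHRS4L2 from 23969874 to 24006408 and DHRS4L1 from 24036453 to 24051028 on the plus strand, and DHRS4-AS1 from 23938731 to 23988839 on the minus strand.

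**Figure D4:**
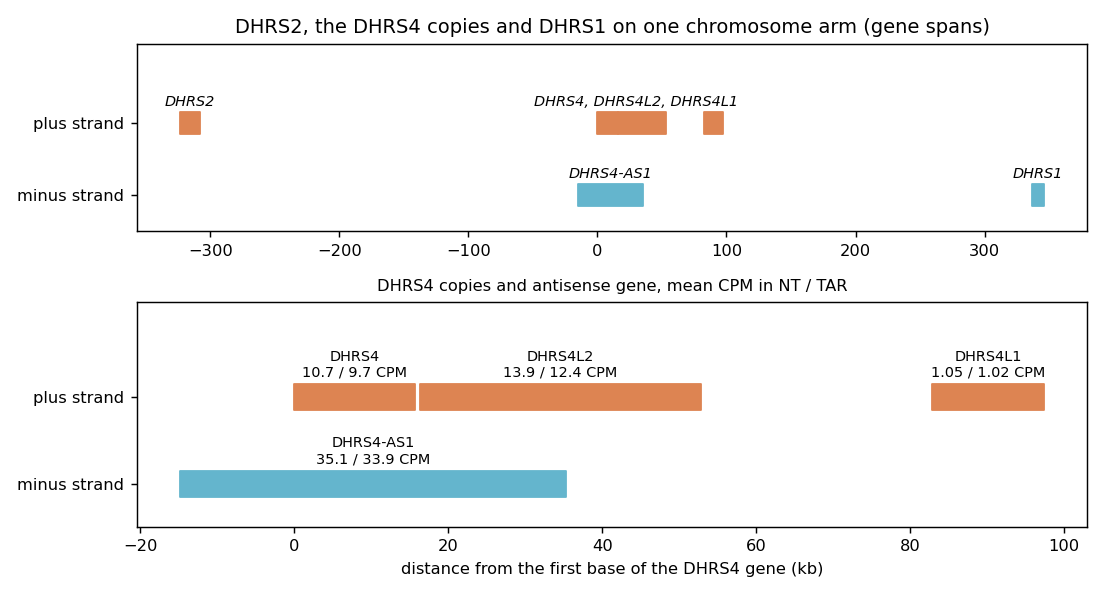
Gene spans on the plus (orange) and minus (blue) strand against the distance in kb from the first base of DHRS4, for DHRS2, the DHRS4 copies, DHRS4-AS1 and DHRS1 (top) and for the DHRS4 copies alone (bottom), with the mean CPM in NT and TAR. DHRS4-AS1 spans all of DHRS4 and is the most abundant of the 4 lower genes, at 35.1 and 33.9 CPM.

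DHRS7B, the peroxisomal enzyme that acts on acyl- and alkyl-dihydroxyacetone phosphate, was at 23.0, 26.4 and 26.4 CPM in NT replicates 1 to 3. In TAR replicates 1 to 3 it was at 22.0, 21.0 and 23.0 CPM. The groups did not overlap, as in 9.37% of all genes with TAR below NT. NT replicate 1 and TAR replicate 3 were equal to the 3 digits printed. The means were 25.3 ± 1.97 and 22.0 ± 1.00 CPM (SD, n = 3 each), a log2 fold change of -0.20 ± 0.10, with -0.16 ± 0.097 after GC correction and a range of -0.27 to -0.15 over 16 alternative fits. Its gene spans 21123364 to 21193265 of chromosome 17 (plus strand).

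DHRS7, an endoplasmic reticulum enzyme that reduces steroid and retinoid substrates in vitro, was the member with the highest level. It was at 38.1, 49.9 and 49.1 CPM in NT replicates 1 to 3 and at 45.4, 44.2 and 48.0 CPM in TAR replicates 1 to 3. The means were 45.7 ± 6.60 and 45.9 ± 1.93 CPM (SD, n = 3 each), a log2 fold change of 0.0030 ± 0.11. On the opposite strand PCNX4 shares 27.5% of the exon bases of DHRS7, at 97.5 ± 6.29 and 116.0 ± 3.18 CPM (SD, n = 3 each). Whether counting used strand is not stated, so the counts of DHRS7, and its place as the highest member, may be affected. The log2 fold change of PCNX4 was 0.25 ± 0.080, and 0.024 ± 0.076 after GC correction. DHRS7 lies on chromosome 14, from 60144120 to 60169856 on the minus strand.

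DHRS12 and DHRS13 are little studied, and DHRS1 is a reductase of the endoplasmic reticulum. DHRS1, on chromosome 14 from 24290598 to 24299833, was at 18.6, 19.5 and 17.9 CPM in NT and 18.4, 17.5 and 16.7 CPM in TAR replicates 1 to 3, a log2 fold change of -0.095 ± 0.10. DHRS12, on chromosome 13 from 51767993 to 51804157, was at 10.2, 9.38 and 10.4 CPM in NT and 9.41, 10.6 and 9.04 CPM in TAR, a log2 fold change of -0.047 ± 0.13. DHRS13, on chromosome 17 from 28897781 to 28903071, was at 12.7, 15.9 and 17.5 CPM in NT and 12.8, 13.1 and 16.8 CPM in TAR, a log2 fold change of -0.11 ± 0.15. The groups overlapped in all 3, which lie on minus strands. DHRS13 has the highest GC content of the tested members, 62.2%, and GC correction gave it 0.046 ± 0.13. An antisense gene, ENSG00000266642, overlaps 41.5% of the exon bases of DHRS13 but had at most 3 counts in a library.

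DHRS9, which oxidises retinol and hydroxysteroids and is known from regulatory macrophages and epithelia, was close to undetected. It had 0, 3 and 0 counts in NT replicates 1 to 3 and 1, 0 and 2 in TAR replicates 1 to 3, so no fold change is given. It lies on chromosome 2, from 169064789 to 169096167.

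Per kilobase of annotated exon, which allows genes of different length to be compared, DHRS7 had the highest level at 14.1 ± 1.34 CPM per kb (SD, n = 6 libraries). DHRS3 followed at 8.03 ± 1.64 CPM per kb, and the ranges of DHRS7 and DHRS3 over the libraries did not overlap at this length. DHRS13 (5.03 ± 0.747), DHRS4 (4.43 ± 0.759), DHRS7B (4.26 ± 0.414) and DHRS1 (3.62 ± 0.195 CPM per kb) were next, and each overlapped its neighbour in that order. DHRS12 was at 2.79 ± 0.180 CPM per kb, below the range of DHRS1. DHRS2 was at 0.631 ± 0.0421 CPM per kb in NT and 0.269 ± 0.0457 in TAR (SD, n = 3 each), above DHRS9 alone. By the mean of all 6 libraries, which is 0.450 CPM per kb for DHRS2, the members can be placed among 18893 tested genes with a known length. Of these, 79.9% had a lower level per kb than DHRS7, 65.2% a lower one than DHRS3, and 10.4% a lower one than DHRS2. With the length of the longest protein-coding transcript the first 2 and last 3 members were the same, and DHRS1 moved from the sixth to the third place. At that length DHRS1 was at 12.2, DHRS7B at 10.9 and DHRS2 at 1.99 CPM per kb (means of 6 libraries), and the ranges of DHRS7 (16.4 to 21.5) and DHRS3 (10.6 to 16.7) overlapped.

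**Figure D5:**
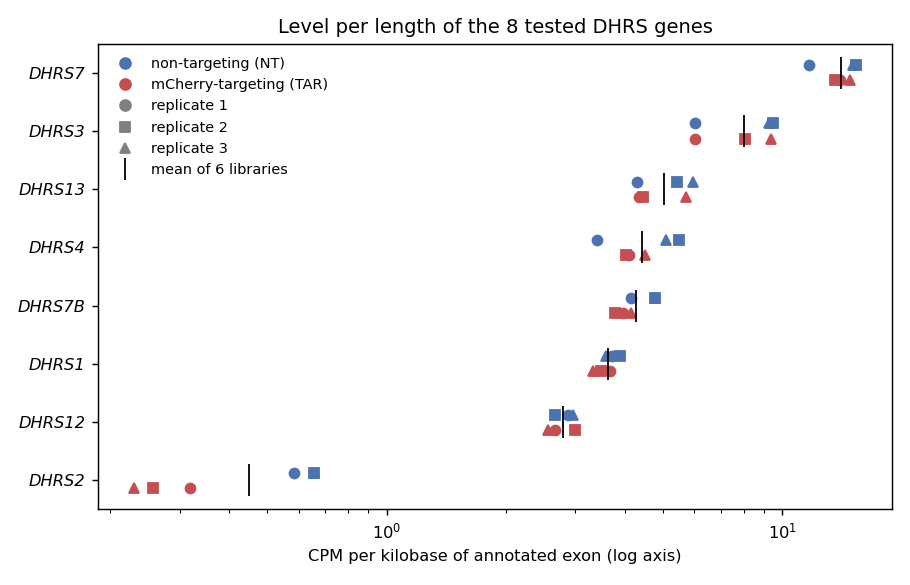
CPM per kilobase of annotated exon (horizontal, log axis) of the 8 tested DHRS genes in each NT (blue) and TAR (red) library, with symbols for replicates and a black line at the mean of 6 libraries. The genes run from DHRS7 at 14.1 to DHRS2, whose TAR points at 0.230 to 0.319 lie apart from its NT points at 0.583 to 0.657.

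Genes that share substrates or cellular sites with the DHRS enzymes were taken as 7 lists, and edgeR called 0 of their members in either direction (0.0102% of all genes). Their counts at an unadjusted p under 0.05 stand against 16.1% of all genes. Several of the genes named move with the GC correction, whose value is given second. Of 10 tested genes of retinol and retinal handling 3 had an unadjusted p under 0.05, 1 of them higher and 2 lower, and the median log2 fold change was 0.038. The most abundant were RDH11, a retinal reductase, at a log2 fold change of 0.23 ± 0.085 (0.12 ± 0.093 with GC correction) and RETSAT, retinol saturase, at 0.042 ± 0.11 (0.11 ± 0.11). Of 18 tested genes of retinoic acid synthesis, clearance, binding and response 3 had an unadjusted p under 0.05, 2 higher and 1 lower, with a median of -0.074. ALDH1A2, the retinal dehydrogenase that makes retinoic acid, was at 104.5 ± 20.7 and 101.4 ± 12.2 CPM, and the binding protein gene CRABP2 at 74.6 ± 14.0 and 66.7 ± 12.6 CPM (SD, n = 3 each). Their groups overlapped, with log2 fold changes of -0.043 ± 0.14 (0.0030 ± 0.14) for ALDH1A2 and -0.16 ± 0.16 (-0.058 ± 0.15) for CRABP2.

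Of 14 tested hydroxysteroid dehydrogenase genes 4 had an unadjusted p under 0.05, 2 in each direction, with a median log2 fold change of -0.049. HSD17B12, which acts in fatty acid elongation, was at 94.3 ± 5.12 and 118.4 ± 6.19 CPM (SD, n = 3 each). The groups did not overlap, as in 12.6% of all genes with TAR above NT, and the log2 fold change was 0.33 ± 0.081 (0.10 ± 0.096 with GC correction). HSD17B4, the peroxisomal multifunctional enzyme, had a log2 fold change of 0.033 ± 0.083 (-0.18 ± 0.10), which changes sign with the correction. Of 9 tested carbonyl and aldo-keto reductase genes 1 had an unadjusted p under 0.05, a higher one, with a median of -0.16 that was -0.064 after GC correction. Its most abundant members, AKR1B1 and AKR7A2, had log2 fold changes of -0.17 ± 0.15 (-0.10 ± 0.15 with GC correction) and -0.22 ± 0.12 (-0.064 ± 0.10). Of 20 other SDR genes 1 had an unadjusted p under 0.05, a higher one, with a median of -0.030, and SDR39U1 and MAT2B were at -0.16 ± 0.10 (-0.095 ± 0.097) and 0.090 ± 0.088 (-0.17 ± 0.11), so MAT2B changes sign. Of 6 other genes with a present or former DHRS name 1 had an unadjusted p under 0.05, a lower one, with a median of -0.050, and HSD17B11, a lipid droplet enzyme, was at 0.16 ± 0.11 (-0.011 ± 0.11), which also changes sign. GC-corrected medians were 0.058 for retinol and retinal, -0.054 for retinoic acid and -0.10 for hydroxysteroid dehydrogenase genes. They were -0.0011 for other SDR genes and -0.075 for other DHRS names, so not every median moved nearer to 0.

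Peroxisome and ether lipid genes had the most genes at an unadjusted p under 0.05, 9 of 24 (6 higher, 3 lower, against 16.1% of all genes). Their median log2 fold change was -0.032 (-0.058 with GC correction). The median GC content of this list, 45.0%, was the lowest of the 7 lists, against 48.1% over all genes tested. The part of the GC trend in the 9 was not tested, and no unadjusted count was taken after GC correction. FAR1, which makes the fatty alcohol for ether lipids, was at 120.4 ± 21.1 and 162.0 ± 16.0 CPM (SD, n = 3 each) without overlap (12.6% of all genes). Its log2 fold change was 0.43 ± 0.12, and 0.10 ± 0.072 after GC correction. PEX26, a peroxisome biogenesis factor, was at -0.093 ± 0.077 (-0.11 ± 0.074), with TAR below NT without overlap (9.37% of all genes). Over the 7 lists limma-voom called 0 genes, and DESeq2 called 1 (1.59% of genes with an adjusted p), ABCD3, a peroxisomal transporter. Without NT replicate 1 edgeR called 19 of the list genes (8.98% of all genes then tested), and both remaining NT libraries then have a 7SK share above 1%, as has 1 of the 3 TAR libraries. The part of the library set in those 19 calls was not tested.

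The label of the line was checked with markers. Of 12 genes known from HEK293 cells 10 had a matched row and all 10 were tested, with a summed level of 623.4 to 746.3 CPM in NT and 570.2 to 684.1 CPM in TAR. VIM, the most abundant, was at 369.7 CPM in NT and 316.1 CPM in TAR, and CDH2 at 114.8 and 113.5 CPM. PAX2 of the same list had a mean of 9.59 CPM over the 6 libraries. Hepatocyte markers, 7 in number, summed to 0.276 to 0.408 CPM in NT and 0.198 to 0.594 CPM in TAR, with APOB, TTR and SERPINA1 at 0. Blood markers, 8 in number, summed to 1.73 to 2.83 CPM in NT and 2.06 to 2.21 CPM in TAR, with PTPRC, HBA1 and HBB at 0. Fibroblast markers, 7 in number, summed to 17.4 to 22.3 CPM in NT and 16.0 to 19.4 CPM in TAR, with DCN at 0. COL1A1, the most abundant of these, was at 15.3 and 13.4 CPM, above PAX2, and COL3A1 at 2.91 and 2.3 CPM. Whether these sums tell the line from other cells was not tested.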

How the data were processed

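RNA was measured in 6 libraries, 3 per group. The authors deposited raw counts per gene in 1 table, not normalized. The submitters' processing notes name cutadapt 4.4, STAR 2.7.4a and the build hg19 (GRCh37). How reads were counted, and whether by strand, the sources used here do not state. Identifiers were matched without version, and coordinates, exon lengths and GC content (longest transcript, known for 96.0% of genes tested) come from GENCODE v29 on GRCh38. Promoters are RefSeq's. Protein sequences were not used here.

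The test was that of edgeR 4.0.16 under R 4.3.3 (TMM, filterByExpr, robust quasi-likelihood F test, Benjamini-Hochberg over 19676 genes, threshold 0.05). The common coefficient of biological variation was 0.113. The SE of an edgeR log2 fold change is its absolute value divided by the square root of its F statistic. The scripts were tested on simulated data. The GC correction removed a loess trend (span 0.5) from each library, and the library set term separates 7SK shares at 1%. DESeq2 1.42.0 and limma 3.58.1 were alternatives. Members, lists and tests were chosen with earlier results of these data known, and the 7SK term and coding length after seeing the data. Genes named outside the members are, by rule, copies and overlapping genes, RDH10, the 2 most abundant of each list, and the 3 profiles nearest to DHRS2. ABCD3, PAX2 and the chromosomal neighbours of DHRS2 were named after their values were seen. P-values set the difference between the groups against the variation between 3 biological replicates of 1 line, moderated across genes.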

Additional observations from a re-analysis of the deposited data

How the results depend on the processing

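Over 16 alternative fits, DHRS1, DHRS2, DHRS4 and DHRS7B kept a log2 fold change below 0 in each fit that tested them (DHRS2 was not tested at a mean CPM of at least 5). DHRS3, DHRS7, DHRS12 and DHRS13 had the other sign in 6, 7, 2 and 3 fits. Of 127 such values 2 moved by over 1 SD between replicates. Against 2 genes called by edgeR, 1 was called with library sizes alone, with a mean CPM of at least 5, with limma-voom and with GC correction, 6 with the replicate block and GC correction, 173 with DESeq2, 597 with no filter, 712 with the library set term (chosen after seeing the data) and 1209 with the replicate block. Leaving out each library gave 1 to 1806, the last without NT replicate 1. Against 0 DHRS members, 1, DHRS2, was called with no filter, with the library set term and with the replicate block, and 0 to 1 on leaving out a library, the 1 without NT replicate 1. Beside that count stand 1.68%, 3.62%, 6.14% and 8.98% of all genes. Against 0 genes of the 7 lists, 1 was called with DESeq2, 6 with no filter and with the library set term, 10 with the replicate block and 0 to 19 on leaving out a library. The cause was not tested. Same-numbered libraries had correlations of deviations from the group means of 0.356, -0.0183 and 0.550 across 14463 genes, so the numbers are not taken as pairs, and the block is given here only as an alternative. Of the 6 libraries, NT replicate 2 and TAR replicate 2 did not correlate best with their own number. Depth limits DHRS9 (at most 3 counts a library) and the precision of DHRS2.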

Other observations

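DHRSX, a family member by name outside the 10, and DHRS7C had 0 counts in all 6 libraries. DHRSX lies in the pseudoautosomal region, which the table lists on both sex chromosomes. All 47 copies listed on Y had 0 counts, as had 42 of their 47 X partners, so the 0 of DHRSX is shared by most rows of that region and is not read as a level.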
